A study of Bos taurus and Bos indicus with 6 samples.

Results

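LEF1 and TCF7 encode the closely related transcription factors of the TCF/LEF family that are most used by T lymphocytes, and TLE1, TLE3 and TLE4 encode Groucho-type corepressors that these factors recruit. The genes described here are these 5 together with BCL11B and SATB1, regulators of T cell identity and of chromatin folding, and CTNNB1, which encodes beta-catenin. The probe sets were taken as all those that the platform annotation assigns to 1 of these 8 symbols. 7 of the 8 genes had a probe set, 11 probe sets in all, out of 24016 probe sets tested and 9155 named genes. BCL11B was not analysed here. TCF7 and TLE4 had 2 probe sets each, TLE1 had 3, and the other 4 genes had 1 each.

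The arrays held RNA from circulating leukocytes of female cattle aged 6 months, 3 Holstein (Bos taurus) and 3 Brahman (Bos indicus), 1 array per animal. All 6 animals were under heavy challenge with the cattle tick Rhipicephalus microplus, and animals without ticks were not part of the data used. The cells were the whole nucleated pellet left after red cell lysis, unsorted. Brahman are zebu cattle and are generally regarded as more resistant to this tick than Holstein, and the comparison asks how circulating leukocytes of the breeds differ while both carry ticks.

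In the canonical Wnt pathway, beta-catenin is continually destroyed unless a Wnt ligand engages Frizzled and LRP receptors. Stabilised beta-catenin enters the nucleus, displaces TLE corepressors from TCF/LEF proteins bound to DNA, and turns their target genes on. In T lymphocytes TCF7 and LEF1 also act without Wnt signals. Both are high in naive and memory-like T cells and fall as T cells become effectors, and SATB1 follows a similar course.

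Values are log2 RMA expression values, which sum up the probes of a probe set after background correction and quantile normalisation across arrays. A difference of 1 is therefore a doubling, and every difference is Brahman minus Holstein. SE is limma's moderated standard error, and a probe set is called when limma's adjusted p (Benjamini-Hochberg over 24016 probe sets) is under 0.05. The genes were chosen by their function together with the measured breed differences of TLE1 and LEF1 in this same comparison, so their breed differences are a description. Where a limma call on one of them is named, it is not independent support. Over the whole table limma called 33 probe sets, 0.137%, and the breeds did not overlap with Brahman higher in 11.7%. Nothing is read from the counts of these genes against those shares.

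Brahman leukocytes gave more signal for both TCF/LEF factors and for 2 of the 3 TLE1 probe sets, while beta-catenin, TLE3 and TLE4 stayed within 0.10 of equality between the breeds. Of the 11 probe sets, 5 had every Brahman array above every Holstein array, 0 had the reverse, and 6 overlapped. The 5 belong to LEF1, TCF7 and TLE1. 1 probe set, of TLE1, was among limma's calls. The median difference over the 11 was 0.59, against 0.02 over all probe sets tested, and the choice of TLE1 and LEF1 by their differences bears on 4 of the 11 values. The median is itself the value of a TLE1 probe set, so nothing is read from it.

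**Figure D1:**
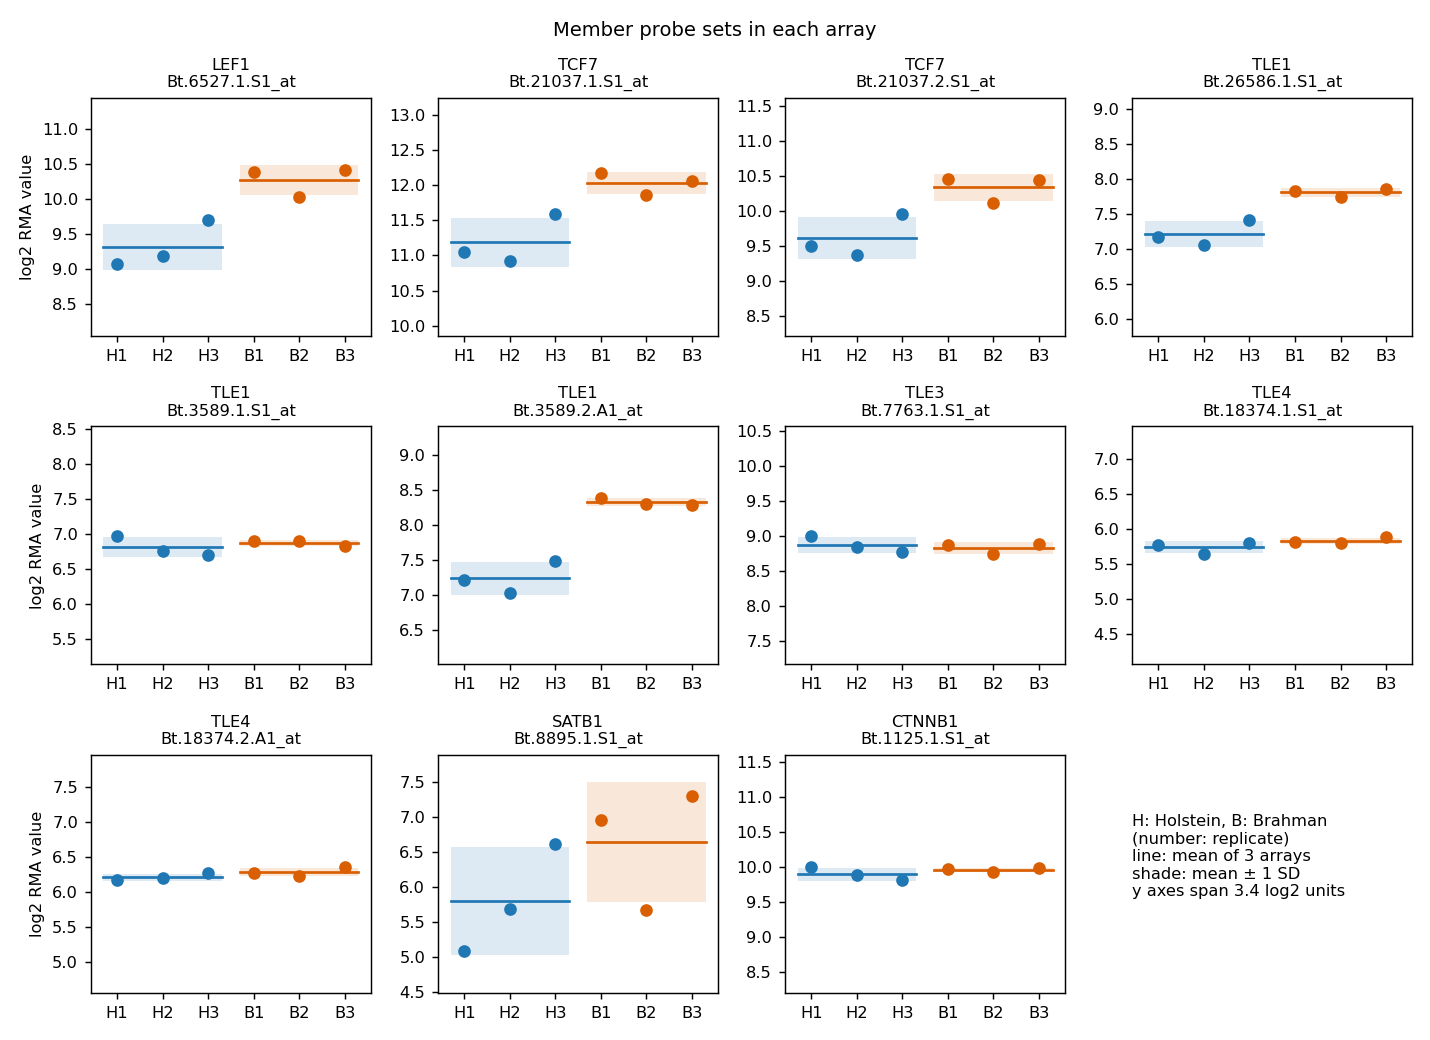
Log2 RMA value (y axis, the same span in each panel) of each of the 11 probe sets in the 6 arrays (x axis; H Holstein, B Brahman). Points are arrays, lines are means of 3 arrays and shading is 1 SD. The 5 probe sets of LEF1, TCF7 and TLE1 without overlap stand out from the level panels of TLE3, TLE4 and CTNNB1 and from the wide scatter of SATB1.

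LEF1 (probe set Bt.6527.1.S1_at) encodes the lymphoid enhancer-binding factor. It read 9.07, 9.18 and 9.69 in Holstein 1, 2 and 3 and 10.38, 10.02 and 10.40 in Brahman 1, 2 and 3. Holstein 3 was the highest Holstein array and Brahman 2 the lowest Brahman array, and a gap of 0.33 separated them. The means were 9.31 ± 0.33 and 10.27 ± 0.21 (SD, n = 3 each), a difference of 0.96 (SE 0.18) or 1.94-fold.

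TCF7 encodes TCF-1, the partner of LEF1 in T cell development. Its brighter probe set (Bt.21037.1.S1_at) read 11.05, 10.93 and 11.59 in Holstein and 12.18, 11.86 and 12.07 in Brahman, a difference of 0.85 (SE 0.18). The other (Bt.21037.2.S1_at) read 9.51, 9.38 and 9.96 in Holstein and 10.45, 10.12 and 10.44 in Brahman, a difference of 0.72 (SE 0.17). Both probe sets of TCF7 had the 6 arrays in the same order, with Holstein 2 lowest, Holstein 3 highest of its breed and Brahman 2 lowest of its breed. The fold differences were 1.80 and 1.65.

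Holstein 3 exceeded the mean of Holstein 1 and 2 by 0.56 for LEF1, by 0.60 and 0.52 for the TCF7 probe sets, and by 0.37 and 0.30 for the TLE1 probe sets Bt.3589.2.A1_at and Bt.26586.1.S1_at. The LEF1 and TCF7 differences were accordingly largest without Holstein 3, at 1.14, 1.05 and 0.90. With any 1 array left out they lay between 0.83 and 1.14 for LEF1, between 0.72 and 1.05 for the brighter TCF7 probe set and between 0.60 and 0.90 for the other.

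The 3 TLE1 probe sets gave different pictures of the corepressor. Bt.3589.2.A1_at read 7.21, 7.03 and 7.49 in Holstein and 8.40, 8.31 and 8.29 in Brahman. Its Brahman arrays were tightly grouped, with a gap of 0.79 to the highest Holstein array, and the difference was 1.08 (SE 0.13) or 2.12-fold. This is the called probe set. With 1 array left out in turn it was called in 1 of 6 fits, the one without Holstein 3, and the call was lost without Holstein 1, Holstein 2 or any Brahman array. Its difference still lay between 0.98 and 1.21 in those fits.

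Bt.26586.1.S1_at of TLE1 read 7.18, 7.06 and 7.42 in Holstein and 7.83, 7.75 and 7.86 in Brahman, a difference of 0.59 (SE 0.11) without overlap. Bt.3589.1.S1_at read 6.97, 6.75 and 6.69 in Holstein and 6.89, 6.90 and 6.82 in Brahman. Here the breeds overlapped, the difference was 0.06 (SE 0.10), and Holstein 3 was the lowest of all arrays rather than the highest of its breed. The TLE1 probe sets thus disagree both between breeds and on the order of the Holstein animals. Which part of the transcript each one reads was not analysed here.

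**Figure D2:**
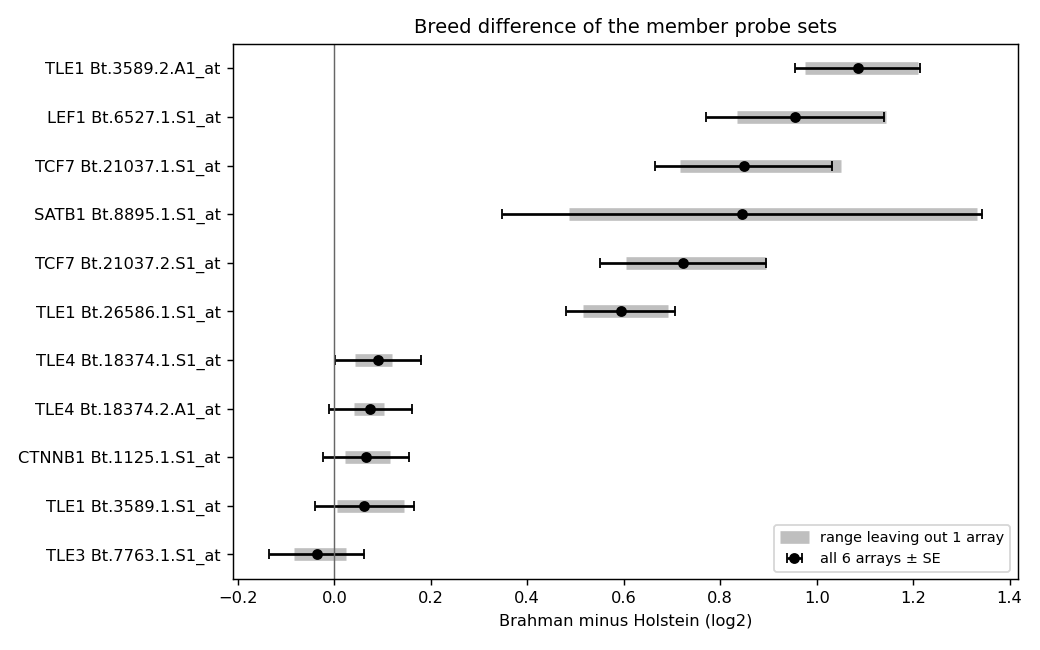
Brahman minus Holstein difference on the log2 scale (x axis) for the 11 probe sets (y axis), with points and bars for all 6 arrays ± SE and grey bands for the range when 1 array is left out. LEF1, TCF7 and 2 TLE1 probe sets keep values above 0.5 in every such fit, SATB1 has the widest band, and the other 5 probe sets lie near 0.

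The other corepressors differed little. TLE3 (Bt.7763.1.S1_at) read 8.99, 8.83 and 8.77 in Holstein and 8.86, 8.73 and 8.88 in Brahman, with the breeds intermingled. Its difference was -0.04, with a 95% interval from -0.27 to 0.19, and its sign turned without Holstein 1 or Brahman 2 (0.03 and 0.01) and with quantile normalisation repeated (0.01). The TLE4 probe sets differed by 0.09 (95% interval -0.12 to 0.30) and 0.07 (-0.13 to 0.28). For Bt.18374.1.S1_at of TLE4 the arrays read 5.65 to 5.81 in Holstein and 5.80 to 5.89 in Brahman, and for Bt.18374.2.A1_at 6.16 to 6.26 and 6.22 to 6.35. No detection calls were used here, and these are levels below the median of all probe sets (6.59), so a low signal may limit what they can show.

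Beta-catenin (CTNNB1, Bt.1125.1.S1_at), the coactivator that TCF/LEF factors bind, read 9.99, 9.89 and 9.81 in Holstein and 9.98, 9.93 and 9.98 in Brahman. The breeds overlapped, and the difference was 0.07 with a 95% interval from -0.14 to 0.28. Beta-catenin is regulated mainly through protein stability, which these arrays do not measure.

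SATB1 (Bt.8895.1.S1_at) varied more among animals than between breeds. It read 5.08, 5.69 and 6.61 in Holstein 1, 2 and 3 and 6.96, 5.66 and 7.29 in Brahman 1, 2 and 3, so Brahman 2 lay below Holstein 2 and 3. The means were 5.79 ± 0.77 and 6.64 ± 0.86 (SD, n = 3 each), a difference of 0.85 (SE 0.50) with a 95% interval from -0.32 to 2.01. It was 0.49 without Holstein 1 and 1.33 without Brahman 2. Like TLE4, SATB1 averaged below the median probe set level, at 6.21. Holstein 3 was the highest Holstein array and Brahman 2 the lowest Brahman array for SATB1, as for LEF1 and TCF7.

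T cell markers were read on the same arrays, and their mean was also higher in Brahman. The mean of 17 T cell markers was 8.97, 9.02 and 9.05 in Holstein 1, 2 and 3 and 9.40, 9.24 and 9.37 in Brahman 1, 2 and 3, a difference of 0.32 without overlap. Of the 17 markers 14 had higher Brahman means, and the differences ran from -0.15 (CD8B) to 0.77 (ZAP70). Single markers did not share a common order of the arrays: Holstein 3 was the lowest Holstein array for CD3D and the highest for CD4. 11 of the 17 were higher at an unadjusted p under 0.05, which 6.23% of named genes were, and limma called 0. CD3E, a signalling subunit of the T cell receptor, differed by 0.54 (SE 0.11, limma adjusted p = 0.126) and CD40LG by 0.74 (SE 0.14, adjusted p = 0.119). The other such subunits measured differed less: CD3D and CD247 by 0.26 each, and CD3G by -0.04 with overlap. CD28, the main costimulatory receptor, differed by 0.56 (SE 0.12, adjusted p = 0.142). In bulk leukocytes a larger share of T cells and more transcript per T cell cannot be told apart.

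LEF1 at 0.96, the brighter TCF7 probe set at 0.85, Bt.3589.2.A1_at of TLE1 at 1.08 and SATB1 at 0.85 all differed by more than the largest T cell marker difference, 0.77. LEF1 and TLE1 were chosen partly for these differences, so this order is a description and nothing is read from it. The other TCF7 probe set and Bt.26586.1.S1_at of TLE1 were each exceeded by 2 of the 17 markers. Within Holstein the highest and lowest arrays were 0.62 apart for LEF1 and 1.53 apart for SATB1, and for single T cell markers from 0.07 (CD28) to 0.91 (CD8B) apart. Within Brahman the marker mean was lowest in Brahman 2, as were LEF1, TCF7 and SATB1.

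With the marker mean of each array as a covariate, the breed difference was -0.13 (SE 0.44) for LEF1, -0.03 (SE 0.51) and -0.18 (SE 0.46) for TCF7, 0.81 (SE 0.43) and 0.27 (SE 0.37) for the same TLE1 probe sets and -2.79 (SE 0.77) for SATB1. Limma called 0 of 24016 probe sets in that fit, with 845 at an unadjusted p under 0.05. The signs of LEF1, TCF7 and SATB1 turned. The marker mean separates the breeds without overlap, so breed and marker level are nearly interchangeable over 6 arrays. The errors of LEF1 and TCF7 grew by over 2 times. The error of SATB1 rose less, from 0.50 to 0.77, and the cause of its turn was not tested.

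**Figure D3:**
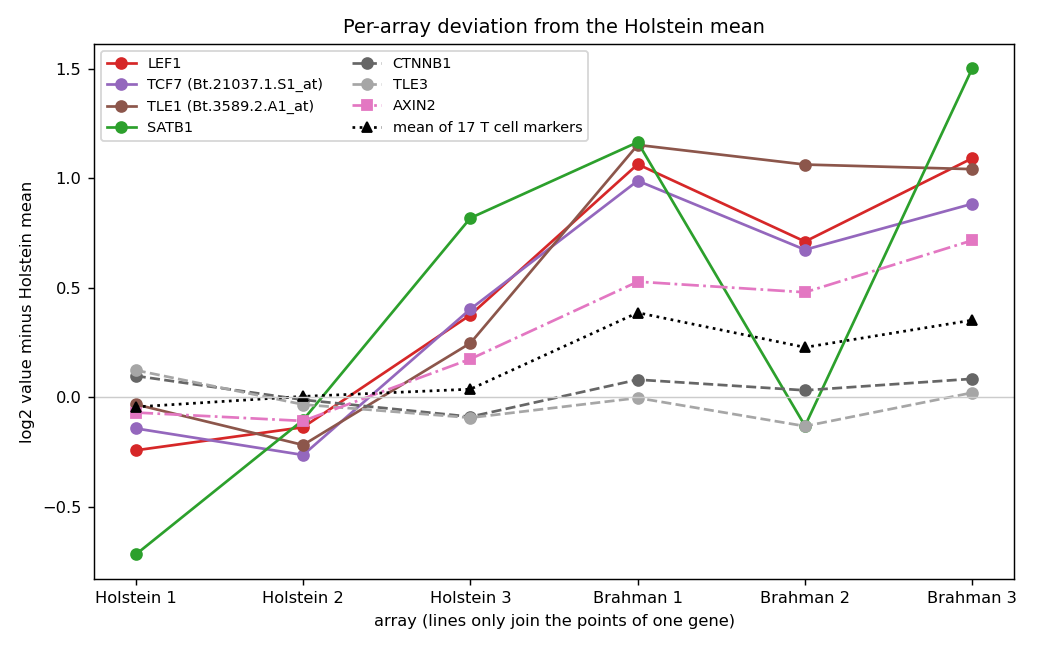
Log2 value minus the Holstein mean (y axis) in each array (x axis). Shown are LEF1, TCF7 (Bt.21037.1.S1_at), TLE1 (Bt.3589.2.A1_at, its probe set of largest difference), SATB1, CTNNB1, TLE3, the Wnt target AXIN2 and the mean of 17 T cell markers. Lines only join the points of one gene or list. LEF1 and TCF7 step up in Holstein 3 and dip in Brahman 2, SATB1 does so more steeply, the T cell marker mean, an average of 17 genes, moves less, and CTNNB1 and TLE3 stay near 0.

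Markers of other leukocytes were read in the same way. Mean levels of the B cell markers (6 genes) ran from 9.84 to 10.17 in Holstein and from 10.02 to 10.30 in Brahman, those of monocytes (7 genes) from 8.93 to 9.39 and 8.86 to 9.04, and those of neutrophils (12 genes) from 8.17 to 8.42 and 8.18 to 8.45, all with overlap. The monocyte genes differed in both directions: CD14 (-0.94, SE 0.20) and CD86 (-0.66, SE 0.22) were lower in Brahman and VCAN (0.92, SE 0.13) higher, each without overlap. Their median difference was -0.31. Platelet and erythroid marker means overlapped too. Single genes of the B cell and neutrophil lists did separate the breeds. BLK (0.97, SE 0.17) and CR2 (0.35, SE 0.10) of the B cell list were higher in Brahman without overlap. So was ALPL (1.42, SE 0.22) of the neutrophil list. Lower Brahman means were found for 4 of the 6 B cell and 8 of the 12 neutrophil genes, and limma called 0 in either list. The mean of natural killer and cytotoxic markers (10 genes) did not overlap, at 7.26 to 7.42 in Holstein and 7.54 to 8.08 in Brahman. They hold the only called marker, the protease gene GZMB (2.51, SE 0.26, limma adjusted p = 0.0264). That mean includes the large GZMB difference, and the median difference of the 10 genes was only 0.15. KLRD1 also separated the breeds (0.90, SE 0.25), while PRF1 was lower in Brahman with overlap (-0.60, SE 0.23). The part of these cytotoxic markers in the differences of LEF1, TCF7 and TLE1 was not tested. The hybridisation spike-in controls read 9.71 to 10.17 in Holstein and 9.40 to 9.56 in Brahman, also without overlap. With their level as a covariate the difference was 0.95 (SE 0.36) for LEF1, 0.61 (SE 0.34) and 0.52 (SE 0.32) for TCF7, and 0.84 (SE 0.22) and 0.46 (SE 0.20) for Bt.3589.2.A1_at and Bt.26586.1.S1_at of TLE1.

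Around these genes, 81 of 150 symbols listed for the Wnt and TCF/LEF pathway and for T cell regulation were measured, 1 probe set per gene, the brightest. On these brightest probe sets limma called 2 higher and 0 lower in Brahman, where 0.164% of named genes were called in either direction. 1 of the 2, FOXP1, has another probe set that was called lower. The median difference of the 81 was 0.03, against -0.01 over all named genes. Before adjustment 13 were higher and 2 lower at p under 0.05, where 6.23% and 9.62% of named genes were.

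**Figure D4:**
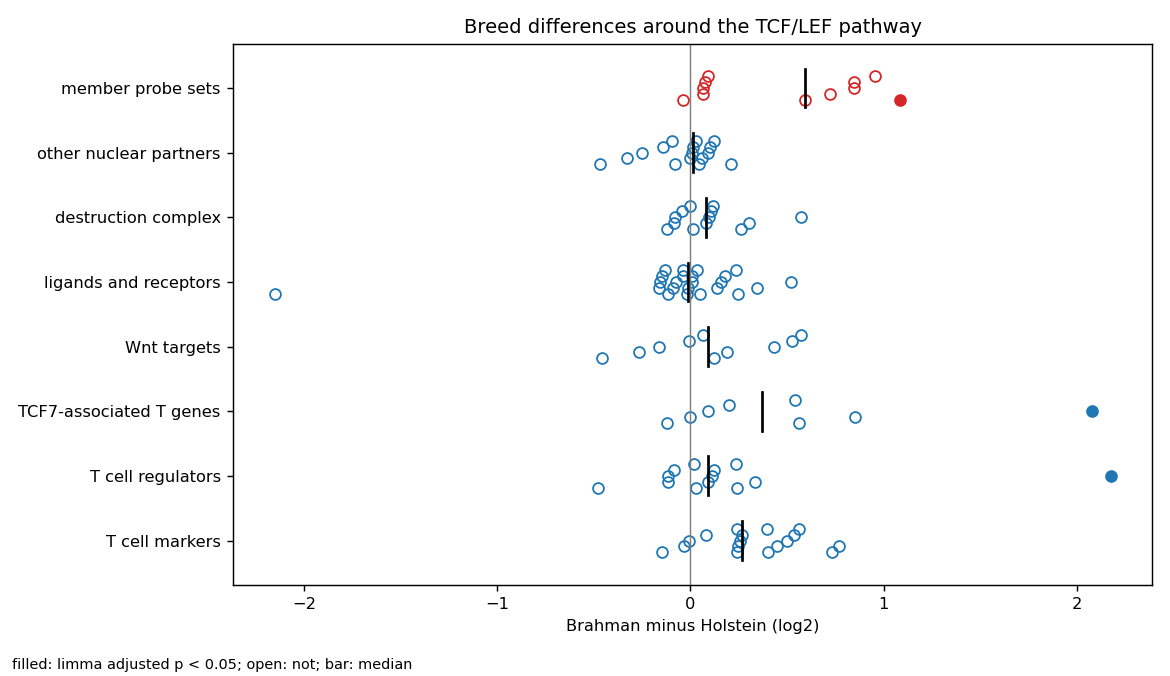
Brahman minus Holstein difference on the log2 scale (x axis) for the 11 probe sets of LEF1, TCF7, TLE1 and their partners and, below, for each gene of 6 pathway lists and the T cell markers (y axis). Filled points are limma calls and bars are medians. The median is 0.59 for the 11 probe sets, which include those of TLE1 and LEF1, chosen partly by their differences. It is 0.01 for other nuclear partners and 0.37 for genes associated with TCF7 in T cells.

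Other nuclear partners of TCF/LEF and beta-catenin showed no call. Of 16 measured, 9 had higher and 7 lower Brahman means, with a median of 0.01, and limma placed 0 at an unadjusted p under 0.05. TCF7L2, the TCF family member of many non-lymphoid tissues, differed by -0.47 (SE 0.22), the opposite sign to LEF1 and TCF7, with overlap between the breeds. The corepressor gene CTBP2 differed by -0.25 (SE 0.12). CTNNBIP1, an inhibitor that blocks the binding of beta-catenin to TCF, differed by -0.33 (SE 0.19) on its brightest probe set, the one counted above. Its other probe set differed by -0.22 (SE 0.09, limma adjusted p = 0.346), with an unadjusted p of 0.0407 and every Brahman array below every Holstein array.

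The 13 measured genes listed for the complex that degrades beta-catenin and for related kinases and ligases had a median of 0.08 and 0 calls. Of them 2 were higher and 0 lower at an unadjusted p under 0.05. AXIN2, a scaffold of that complex and itself a widely used target of TCF/LEF activity, read 6.91, 6.87 and 7.15 in Holstein and 7.51, 7.46 and 7.70 in Brahman. The breeds did not overlap, and the difference was 0.57 (SE 0.12, limma adjusted p = 0.129). As for LEF1, Holstein 3 was the highest Holstein array and Brahman 2 the lowest Brahman array. CSNK1G1, of the casein kinase 1 family, differed by 0.30 (SE 0.10) and FBXW11, a ubiquitin ligase subunit, by 0.26 (SE 0.13). CSNK1A1, the family member that acts in the complex, differed by -0.0022 (SE 0.16) with overlap.

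Ligands, receptors and their inhibitors had a median of -0.01 over 23 genes and 0 calls, with 3 higher and 1 lower at an unadjusted p under 0.05. The lower gene was WLS, the carrier that Wnt ligands need for secretion. It read 10.20, 10.29 and 9.86 in Holstein and 6.21, 8.95 and 8.75 in Brahman, so the breeds did not overlap but Brahman 1 stood far below the other 2 Brahman arrays. Its difference was -2.15 (SE 0.66, limma adjusted p = 0.255). The secreted Wnt antagonist genes SFRP1 and FRZB differed by 0.34 (SE 0.11) and 0.52 (SE 0.18), FRZB the latter from a Holstein mean of only 4.13, and the lower quartile of probe set means was 5.08.

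Among 10 measured Wnt targets, AXIN2 included, 6 had higher Brahman means, the median was 0.09 and limma called 0, with 3 higher and 1 lower at an unadjusted p under 0.05. The growth regulator MYC differed by 0.53 (SE 0.14, limma adjusted p = 0.214) and the adhesion receptor gene CD44 by 0.43 (SE 0.13, adjusted p = 0.249). Both separated the breeds without overlap.

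Genes associated with TCF7 in T cells had a median of 0.37 over 8 measured, with 6 higher, 1 of them called, and 4 reaching an unadjusted p under 0.05, all higher. The called gene was SLAMF6, a surface receptor that marks TCF7-positive memory-like T cells and is also found on NK and B cells. It read 5.87, 6.59 and 6.71 in Holstein and 8.16, 8.46 and 8.79 in Brahman, a difference of 2.08 (SE 0.25, limma adjusted p = 0.0416), and it was called in 1 of the 6 fits that leave out an array. ID3, an inhibitor of E proteins, differed by 0.54 (SE 0.11, adjusted p = 0.123). CD28 is also one of the T cell markers above.

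Of 13 other T cell regulators 9 had higher Brahman means, with a median of 0.09. The 1 called was the brightest FOXP1 probe set (2.18, SE 0.20, limma adjusted p = 0.0171), in 3 of the 6 fits that leave out an array. The other FOXP1 probe set was called lower, at -3.29 (SE 0.13, limma adjusted p = 0.000541), so no direction can be given for this gene. The E protein gene TCF3 differed by 0.33 (SE 0.11, adjusted p = 0.271) and NFATC3 by 0.24 (SE 0.13, adjusted p = 0.460).

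The named probe sets most like LEF1 over the 6 arrays were those of MKS1, ADAT1, DVL2, C5H12orf75 and C14H8orf76, with Pearson r from 0.989 to 0.993, where 91 of 13291 exceeded 0.95. DVL2 encodes a Dishevelled protein of the Wnt pathway and differed by 0.16 (SE 0.08). For the brighter TCF7 probe set they were C14H8orf76, SPSB1, DCLK1, PHLPP2 and BECN1 (r from 0.990 to 0.999). DCLK1 (means 3.74 in Holstein and 3.91 in Brahman) and PHLPP2 (3.81 and 4.11) lay below the lower quartile of probe set means, 5.08. A low signal may limit what their r can show. For Bt.3589.2.A1_at of TLE1 the most alike were CYP11B1, TRGC4, ZBTB4, DIP2B and TSPY (r from 0.988 to 0.998). TSPY is a Y chromosome gene and the animals were female, so what the probe set with that symbol reads is not known. TRGC4 is a constant region gene of the gamma chain of the T cell receptor. These r are descriptions. The breeds form separate clusters for the 3 genes, and with each breed's mean subtracted r ran from 0.937 to 0.990 for the LEF1 set, from 0.958 to 0.999 for the TCF7 set and from 0.792 to 0.987 for the TLE1 set. All the probe sets named here had smaller breed differences than LEF1, from 0.10 to 0.59 over the 3 sets.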

How the data were processed

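The authors deposited a table of log2 values, 1 for each probe set on each array, made with RMA per the submitters' processing notes, version not given in the sources used here. Values ran from 2.89 to 14.45. Of 24128 probe sets 112 array controls were left out. Array medians lay between 6.54 and 6.61, and precision is limited by having only 3 arrays of each breed. Per the labels each array is a different animal. Gene symbols came from the platform annotation. Looking them up through RefSeq gene identifiers (assembly ARS-UCD2.0) changed 0 symbols. Of the tested probe sets 13292 had 1 symbol, 86 several and 10638 none. No sequences or coordinates were used here.

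Breed was fitted with limma 3.58.1 in R 4.3.3 (lmFit, eBayes), two-sided, on all 24016 probe sets. The pipeline was tested on simulated data. The genes and lists were chosen with earlier results of these data known. Named in the text are every probe set of the chosen genes, called genes and the 5 probe sets of highest r. Also named are the 3 genes of smallest p in each pathway list and in the T cell, cytotoxic and monocyte lists. CD8B, ZAP70, CD3D, CD3G, CD247, CD4, BLK, CR2, ALPL, CSNK1A1 and the range of CD28 within Holstein were singled out after their values were seen. So were the other probe sets of FOXP1 and CTNNBIP1 and DVL2's role. The replicate numbers were not taken to pair the animals: deviations of same-numbered arrays correlated at 0.11, -0.04 and -0.07. Differently numbered arrays were not compared, so these values alone do not settle it.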

Additional observations from a re-analysis of the deposited data

How the results depend on the processing

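With 3 arrays per breed, the counts of calls changed when single arrays were left out. Each such fit also has fewer arrays to estimate error from, so a lost call is not traced to the array left out. The count of called probe sets among LEF1, TCF7, TLE1 and their partners, 1 of 11, became 0 with the replicate block, with the T cell marker level and with the spike-in level as covariate, and ranged from 0 to 1 when 1 array was left out. The count over the whole table, 33, became 10 with the replicate block, 0 with either covariate and 15 with 1 probe set per gene (fewer were tested), and ranged from 5 to 55 when 1 array was left out. The 2 calls in the pathway lists became 1 with arrays centred on their medians and 0 with either covariate, with a range of 0 to 2. The 1 call among cell type markers became 0 with the replicate block or either covariate, with a range of 0 to 2. With the spike-in covariate 2379 probe sets had an unadjusted p under 0.05. The replicate number was not taken to pair the animals, so calls lost under the block are not read as weaker effects.

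The 5 probe sets of LEF1, TCF7 and TLE1 without overlap kept their sign in 75 of 78 values under the alternatives, and the 3 exceptions, of LEF1 and TCF7, came with the T cell marker covariate. The cause of these changes was not tested. The spike-in covariate turned the small differences of TLE1 Bt.3589.1.S1_at (-0.11), TLE4 Bt.18374.1.S1_at (-0.01) and CTNNB1 (-0.0033), and the T cell marker covariate that of TLE4 Bt.18374.2.A1_at (-0.12). Levels near background could not be told from the values, since detection calls were not used here.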
